A study of Mus musculus with 4 samples.

Results

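Tudor domain genes of the germ granules are 10 genes named by symbol: Tdrd1, Tdrd3, Tdrd5, Tdrd6, Tdrd7, Tdrd9, Tdrkh, Rnf17, Stk31 and Snd1. They were chosen by name, with earlier results of these data known. Of the 10, 8 had a row of exon reads in sense orientation among the 12415 genes so listed. Intron reads in sense orientation were listed for 7 of them, among 6616 genes. Tdrd5 and Tdrd9 were not analysed here, since neither their symbols nor their RefSeq synonyms matched a row.

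A Tudor domain is a small fold that binds methylated arginine or lysine residues. In male germ cells, PIWI proteins carry methylated arginines, and Tudor proteins hold them in cytoplasmic granules next to mitochondria and in the chromatoid body of spermatids, where piRNAs are made and transposon transcripts are cleaved. TDRD1, TDRD5, TDRD9 and TDRKH belong to the piRNA machinery, TDRD6, TDRD7 and RNF17 are granule components of meiotic and haploid cells, STK31 joins a Tudor domain to a kinase-like domain, and TDRD3 and SND1 are found in most tissues.

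The study asked whether loss of NEF-sp, a testis-specific exoribonuclease, alters the RNAs of the testis. Total testicular RNA, depleted of ribosomal RNA, was sequenced with strand information from adult C57Bl/6J mice at postnatal day 60. There were 2 libraries from Nef-sp -/- mice (the mutants), which carry a 23-bp frameshift deletion on both alleles, and 2 from Nef-sp +/- mice (the controls), which carry the same deletion on 1 allele. No wild-type library was part of the comparison, the line was set up from founder females, edited with the Cas9 nickase, and wild-type males, and the labels do not say whether the libraries of a genotype came from separate mice, so p-values measure the spread between these samples. The libraries held between 20659865 and 34442517 reads in all annotation categories together. Nef-sp (2610020H08Rik) exon reads were 1843 and 1693 normalized counts in the controls and 407 and 497 in the mutants, which follows the labels (log2 fold change −1.97, standard error 0.092, adjusted p = 4.1e-06 from the quasi-likelihood test of edgeR). Normalized counts are reads divided by the library's TMM-scaled size relative to the mean of the 4 libraries.

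The tissue label was checked with markers. Protamine and transition protein genes of elongating spermatids were the most abundant list, with 16585 to 20427 RPM (exon sense reads per 1000000 after TMM scaling) in the controls and 20197 to 20724 in the mutants when summed over 4 genes. Sertoli cell markers summed to 867 to 904 RPM and spermatogonial markers to 14.1 to 18.9 over the 4 libraries. Of the Sertoli markers, Clu had a mean of 851 RPM, Wt1 31.8 and Sox9 0.897, while Amh and Rhox5 had no row. The epididymis genes with a row, Crisp1 and Defb30, summed to at most 3.46 RPM and the hemoglobin gene Hbb-b1 to at most 1.40. Lcn5 of the epididymis list and Hba-a1 of the blood list had no row. Of the stage lists, the round spermatid sum (1234 to 1287 RPM in the controls, 1242 to 1253 in the mutants) overlapped between genotypes, as did the spermatocyte sum (686 to 723 and 660 to 731). The elongating spermatid sum also overlapped, but the median log2 fold change of its 4 genes was 0.15. Both mutants were higher for Tnp1 (0.18) and Tnp2 (0.17), as for 16.4% of all features tested, while Prm1 and Prm2 (0.12 each) overlapped. The sums of the Leydig (952 to 969 and 763 to 907), peritubular myoid (67.5 to 69.4 and 59.5 to 65.5) and macrophage markers (22.3 to 23.0 and 20.5 to 20.9) were lower in both mutants, and their part in the values below was not tested. Within these lists, both mutants were lower for Cyp17a1 (log2 fold change −0.27) and Cyp11a1 (−0.35) of the 5 Leydig genes. The same held for Acta2 (−0.16) of the 3 myoid genes and Lyz2 (−0.16) of the 4 macrophage genes. Over all features tested, 18.1% had both mutants lower. All the other genes of the 3 lists overlapped between genotypes. The Leydig genes Star, Insl3 and Hsd3b6 had values of 0.080, 0.18 and 0.010, and the median of the Leydig list was 0.010. Of the Sertoli markers, Wt1 (−0.11) was also lower in both mutants, while Sox9 and Clu overlapped.

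The 8 genes differed widely in level, and with all annotated exons as the length their order was the same in all 4 libraries. Levels of different genes are compared here as exon sense reads per kilobase of annotated exon, in a library scaled to 1000000 exon sense reads (RPM per kilobase), with exon lengths from the GENCODE annotation of mm9. Tdrd6, which encodes a large chromatoid body protein, stood highest with 329 ± 9.79 (SD, n = 4). Its libraries read 340 and 319 in the controls and 335 and 323 in the mutants, which placed it at rank 171 of 11414 genes with a matched length. Tdrd7, another chromatoid body gene, followed with 149 ± 3.32, and Rnf17, a RING finger and Tudor gene, with 72.1 ± 2.48 (SD, n = 4 each). Stk31, at 51.4 ± 1.46, and Tdrd1, the partner of MILI, at 46.3 ± 4.05 (SD, n = 4 each), were neighbours whose ranges over the libraries overlapped. Tdrd3 came next with 11.8 ± 0.148, then Tdrkh with 4.197 ± 0.284 and Snd1, a nuclease-like Tudor gene, with 2.01 ± 0.0725 (SD, n = 4 each). On these lengths all other neighbours were apart in every library. Their ratios of means lay between 1.40 for Rnf17 over Stk31 and 3.93 for Tdrd1 over Tdrd3. Tdrd6 was 164 times as high as Snd1 per kilobase. This ratio depends on the length used, and was 81.9 when the longest annotated transcript replaced the union of exons, because the union for Snd1 is 7551 bases and its longest transcript 3781.

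**Figure D1:**
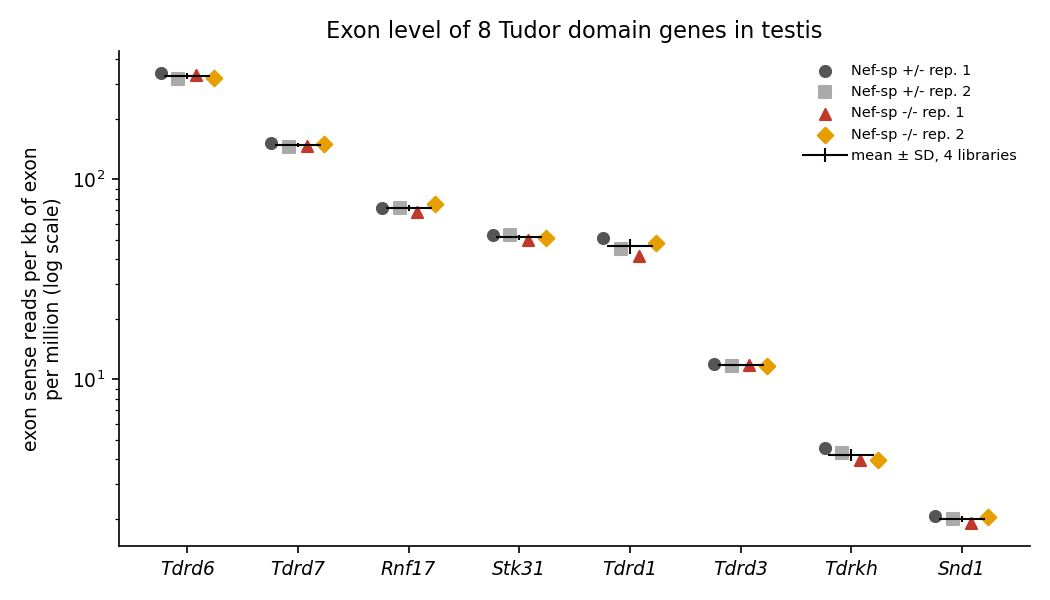
Exon sense RPM per kilobase of exon (log axis) for the 8 Tudor genes, ordered by mean, with 1 point per library and the mean ± SD of the 4 libraries. Levels run from 329 for Tdrd6 to 2.01 for Snd1, and the points of 1 gene lie close together compared with the distance between genes, except for Stk31 and Tdrd1, whose points overlap.

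The gene structures are unlike. Tdrd6 lies on chromosome 17 of mm9 from 43752284 to 43767248 on the minus strand, and a single exon of 6193 bases holds most of its 7062 exon bases. Rnf17 on chromosome 14 (57021534 to 57143869, plus strand) has 37 exons in its longest transcript, none longer than 305 bases. Tdrd3 lies on the same chromosome (87816390 to 87945315, plus strand) with 12 exons, Tdrd7 on chromosome 4 (45978206 to 46047633, plus strand) with 17 and Tdrd1 on chromosome 19 (56900699 to 56944502, plus strand) with 25. Tdrkh is a compact gene on chromosome 3 (94217218 to 94236555, plus strand) with 14 exons, whereas Snd1 spans 460 kb of chromosome 6 (28425139 to 28885162, plus strand), mostly introns. A 50-base read lies wholly inside 1 exon at a number of positions equal to 96.5% of the exon length in Tdrd6 but only 64.7% in Rnf17 and 63.7% in Stk31. The authors kept only reads with a perfect match to the genome, and no separate alignment across exon junctions is described in the sources used here, so levels per kilobase were also computed on these positions, a choice made after seeing the data. The order of the 8 genes was then the same, with 341 for Tdrd6, 194 for Tdrd7, 112 for Rnf17, 80.7 for Stk31, 61.1 for Tdrd1, 13.6 for Tdrd3, 5.04 for Tdrkh and 2.56 for Snd1. By reads alone, the 8 genes took 0.370% to 0.403% of all exon sense reads of a library, and Tdrd6 took 60.1% to 62.3% of the reads of the 8.

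No Tudor gene passed the test between genotypes. Of the 8 genes tested in exon sense reads, 0 had an adjusted p below 0.05 with edgeR, 0 had an unadjusted p under 0.05, and 0 were called by DESeq2. Over all 10728 features these shares were 0.00932% (Nef-sp itself), 4.8% and 0.0186%. Adjusted p-values of the 8 ran from 0.954 to 0.9998. The background count was unstable to the control libraries, with 39 features called without Nef-sp +/- replicate 1 and 185 without Nef-sp +/- replicate 2, but the number of Tudor genes called was 0 in these fits too. Such a fit keeps 1 control, which is assumed to vary like the mutants. Without Nef-sp +/- replicate 2, 1 Tudor gene, Tdrd1, had an unadjusted p under 0.05. Fewer cells of a type and less RNA per cell cannot be told apart in RNA of a whole testis.

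Tdrd6 had 44675 and 41897 normalized counts in the controls and 44026 and 42530 in the mutants. The groups overlapped, with both mutant values between the controls, and the log2 fold change of mutants over controls was −0.00018 (standard error 0.063). Its 95% interval of −0.14 to 0.14 corresponds to a fold between 0.908 and 1.10. Tdrd7, with 11469 and 10916 in the controls and 11036 and 11292 in the mutants, behaved alike in that both mutant values fell between the controls. Its log2 fold change was −0.0035 (standard error 0.059, interval −0.13 to 0.13).

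Rnf17 showed a tight pair of controls, 6946 and 6942 normalized counts, and mutant values on either side of them, 6624 and 7207. Its log2 fold change was −0.0059 (standard error 0.062, interval −0.14 to 0.13). Stk31 was lower in both mutants, with 3175 and 3167 in the controls and 2990 and 3071 in the mutants. The difference was small, at 95.5% of the control mean, with a log2 fold change of −0.066 (standard error 0.057, interval −0.19 to 0.061) and an adjusted p of 0.956 from edgeR.

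Tdrd1 varied most, with a coefficient of variation of 8.74% over the 4 libraries against 1.25% to 6.77% for the other 7. It had 5141 and 4577 normalized counts in the controls and 4182 and 4863 in the mutants, so that the groups overlapped and each genotype held a higher and a lower library. The log2 ratio of replicate 2 to replicate 1 was −0.17 in the controls (95% interval from counting error alone, −0.22 to −0.11). In the mutants it was 0.22 (0.15 to 0.28), so it was beyond counting error in both. Tdrd6 was also beyond counting error in both genotypes (−0.093 in the controls and −0.050 in the mutants), as were Tdrd7 in the controls and Rnf17 in the mutants. The Tdrd1 log2 fold change between genotypes was −0.10 (standard error 0.082, interval −0.28 to 0.078). This value was 0.0023 without Nef-sp -/- replicate 1, −0.017 without Nef-sp +/- replicate 1, −0.19 without Nef-sp +/- replicate 2 and −0.21 without Nef-sp -/- replicate 2. Tdrd1 intron reads ranked the 4 libraries in the same order, with 211 and 173 normalized counts in the controls and 157 and 200 in the mutants. Summed spermatocyte markers were also higher in Nef-sp +/- replicate 1 (723 RPM) and Nef-sp -/- replicate 2 (731) than in Nef-sp +/- replicate 2 (686) and Nef-sp -/- replicate 1 (660), and their part in the Tdrd1 values was not tested.

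Tdrd3 was the steadiest gene, with 1299 and 1268 normalized counts in the controls and 1282 and 1264 in the mutants. The log2 fold change was −0.011 (standard error 0.062, interval −0.15 to 0.13), and the replicates of each genotype differed within counting error. Snd1 gave 291 and 281 in the controls and 269 and 290 in the mutants, with overlapping groups, a log2 fold change of −0.030 and a wider interval of −0.24 to 0.18 at its lower count.

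Tdrkh, which encodes a mitochondrial Tudor and KH domain protein needed to trim piRNA precursors, had the largest exon difference of the 8. Its normalized counts were 322 and 306 in the controls and 281 and 282 in the mutants, so both mutants were lower, at 89.5% of the control mean. The log2 fold change was −0.15 (standard error 0.092, interval −0.36 to 0.048), and it did not pass the test (adjusted p = 0.954 from edgeR). Tdrkh and Stk31 were the 2 of 8 genes with both mutants below both controls, which 18.1% of all features tested showed as well, and 0 of 8 had both above, against 16.4%. The fitted log2 fold change was below 0 in 8 of 8 genes, against 50.1% of all features. However, for Tdrd6, Tdrd7, Tdrd3, Rnf17, Tdrd1 and Snd1 it turned above 0 when at least 1 of the libraries was left out. For Tdrd6 it also did so with the size factors of DESeq2. Nef-sp +/- replicate 1 was the highest library for each of the 8 except Rnf17. In that library the 8 genes took 0.403% of exon sense reads, against 0.370%, 0.375% and 0.378% in the others. The median log2 fold change of the 8 was −0.021, beside −0.00022 over all features. Their median absolute log2 fold change was 0.021, beside 0.071 over all features, which were not matched to the 8 by count. The median standard error over all features was 0.089, against 0.057 to 0.082 in the 8 apart from Tdrkh (0.092) and Snd1 (0.095). The intervals of all 8 lay within −0.36 and 0.18, a fold between 0.781 and 1.13.

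**Figure D2:**
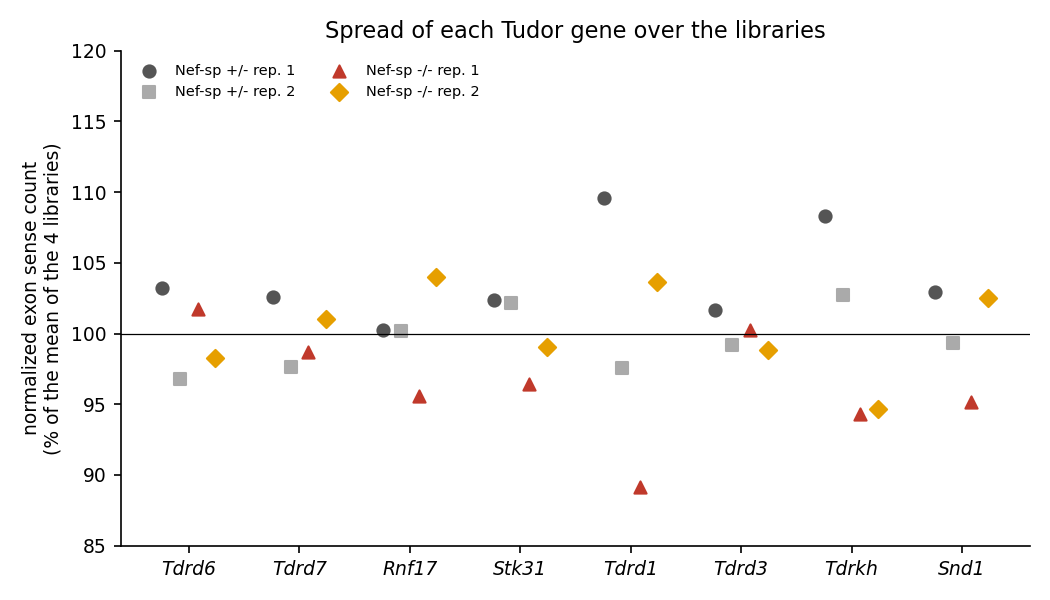
Normalized exon sense counts of each library as a percentage of the gene's mean over the 4 libraries (axis from 85 to 120%). Tdrd1 spreads from 89.1% to 109.6%, the mutant points of Tdrkh (94.3% and 94.7%) lie below its control points (102.7% and 108.3%), and in most other genes the genotypes are mixed.

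**Figure D3:**
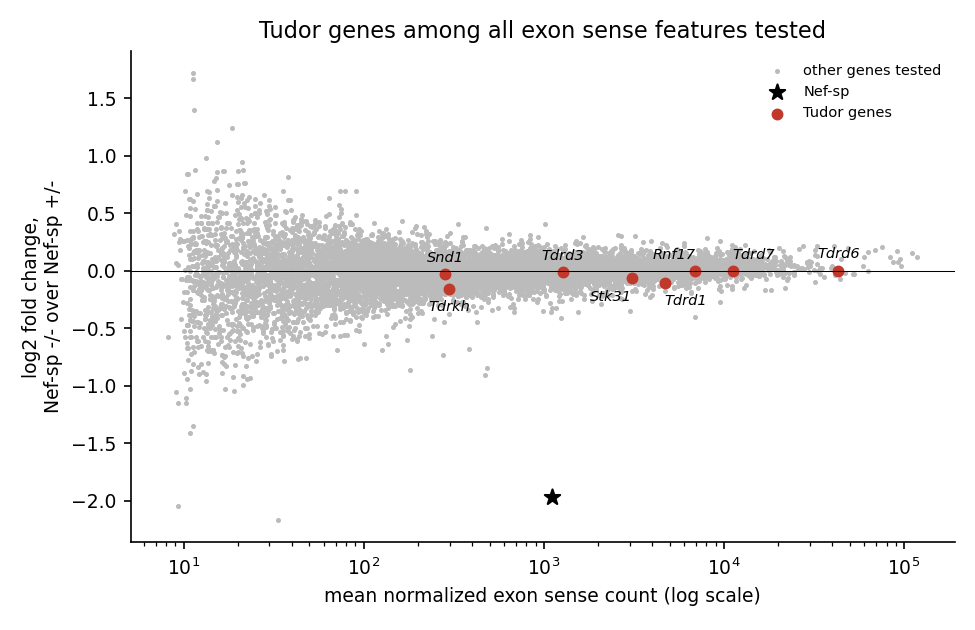
Log2 fold change of mutants (Nef-sp -/-) over controls (Nef-sp +/-) against the mean normalized exon sense count (log axis) for all 10728 features tested, with the 8 Tudor genes in red and Nef-sp as a star. The Tudor genes lie between −0.15 and 0 within the cloud, while Nef-sp lies at −1.97.

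Intron reads in sense orientation were taken as a second readout of the same transcription units, since they can come from unspliced RNA or retained introns. Their source was not tested. Per 100 exon reads, Rnf17 had the most intron reads, 20.9 and 19.5 in the controls and 19.6 and 20.6 in the mutants. An annotated U6 snRNA of 103 bases lies in a Rnf17 intron on the same strand, and how its reads were assigned was not tested. Tdrkh followed with 7.21 ± 2.66, then Tdrd1 with 3.97 ± 0.407, Tdrd7 with 2.81 ± 0.0805, Tdrd3 with 1.60 ± 0.202 and Tdrd6 with 0.418 ± 0.0968 (SD, n = 4 each). These ratios do not account for intron length, which runs from 7.90 kb in Tdrd6 to 123 kb in Tdrd3 among the genes with intron rows. Per kilobase, intron reads reached 1.77% of the exon density in Tdrkh, 0.887% in Rnf17, 0.564% in Tdrd1, 0.374% in Tdrd6, 0.173% in Tdrd7 and 0.0760% in Tdrd3.

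Tdrkh intron reads were fewer in both mutants, with 24 and 43 raw reads in the controls and 16 and 9 in the mutants. In normalized counts the means were 29.3 ± 3.35 and 14.5 ± 6.47 (SD, n = 2 each), the groups did not overlap, and the mutant mean was 49.4% of the control mean. The log2 fold change was −1.04 (standard error 0.35, interval −1.77 to −0.32), with an adjusted p of 0.9996 over 3403 features from edgeR, so that it did not pass the test. It was the 1 of 6 Tudor genes with an unadjusted p under 0.05, which 2.35% of all intron features had. This count was 0 without Nef-sp -/- replicate 2 and 0 with DESeq2, and 2 without Nef-sp +/- replicate 1, with Tdrd6 beside Tdrkh. The value rests on 92 reads in all and moved to −0.64 without Nef-sp -/- replicate 2 and to −1.57 without Nef-sp -/- replicate 1. Relative to exon reads, Tdrkh had 8.57 and 9.91 intron reads per 100 in the controls and 6.58 and 3.78 in the mutants. The difference between its exon and intron changes was not tested. Tdrd7 went the other way in this ratio, with 2.73 and 2.75 in the controls and 2.85 and 2.90 in the mutants. The other Tudor genes with intron rows overlapped between genotypes. The share of all features without overlap in this ratio was not computed.

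Of the 6 Tudor genes tested in intron reads, 0 had an adjusted p below 0.05 with edgeR or DESeq2, against 0.0294% of the 3403 features (Nef-sp). Both mutants were below both controls in 2 of the 6, Tdrkh and Rnf17, against 14.5% of all features, and 0 were above, against 13.5%. The log2 fold change was below 0 in 4 of the 6, against 47.9%. Rnf17 intron counts were 1413 and 1418 in the controls and 1337 and 1380 in the mutants, a log2 fold change of −0.059 (interval −0.33 to 0.22). Tdrd6 intron reads, whose controls differed the most at 207 and 131 against 174 and 203 in the mutants, had the largest positive value, 0.19 (interval −0.22 to 0.59). The other log2 fold changes were −0.089 for Tdrd1, −0.084 for Tdrd3 and 0.020 for Tdrd7, each with an interval that includes 0.

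**Figure D4:**
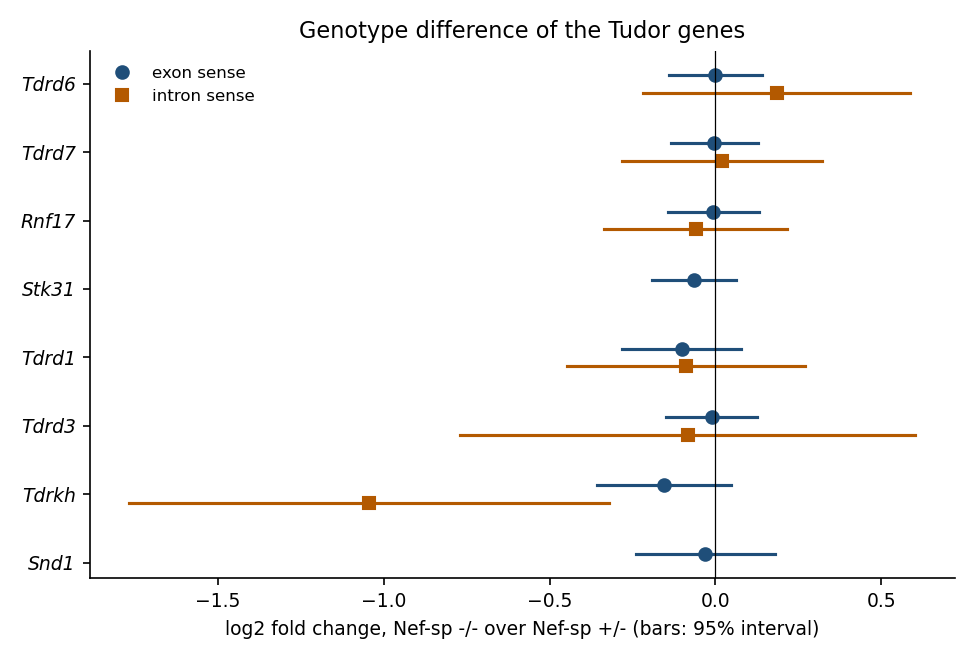
Log2 fold changes of mutants (Nef-sp -/-) over controls (Nef-sp +/-) for exon sense (circles) and intron sense reads (squares) of the Tudor genes, with 95% intervals from the edgeR fit. All exon intervals include 0 and stay within −0.36 and 0.18, and the intron interval of Tdrkh (−1.77 to −0.32) is the one that does not include 0, without adjustment for the number of features.

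**Figure D5:**
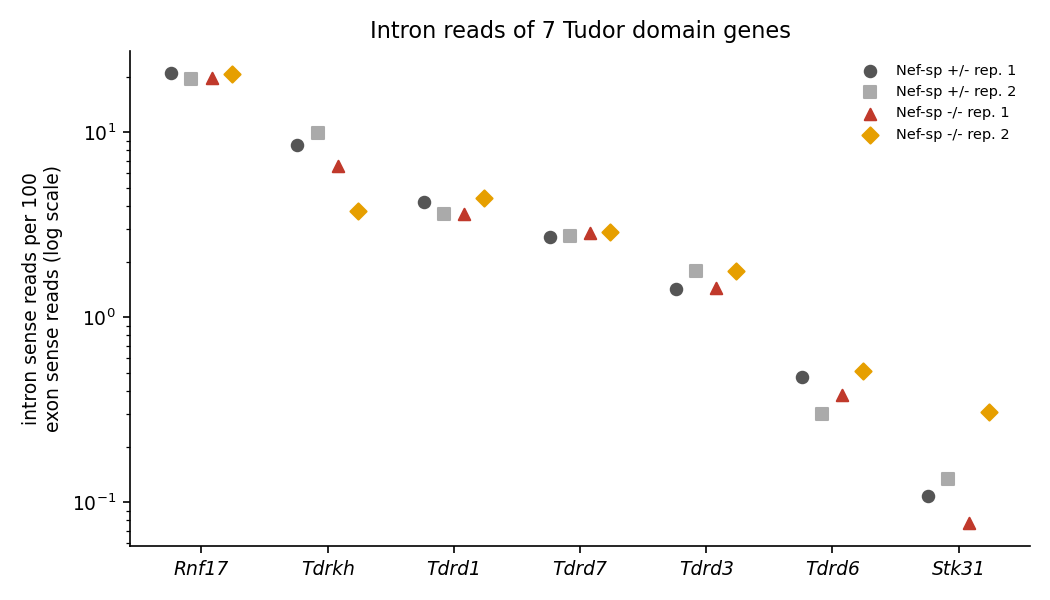
Intron sense reads per 100 exon sense reads (log axis) in each library for the 7 Tudor genes with intron rows, ordered by mean. Rnf17 lies near 20 in all 4 libraries, and Stk31 at the bottom rests on 19 intron reads in total. The mutant points of Tdrkh lie below its control points, and those of Tdrd7 lie slightly above its control points.

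Reads in antisense orientation were rare over the exons of the Tudor genes, with rows for Tdrd6 and Stk31 alone. Tdrd6 had 6 antisense exon reads in all, 0.0035% of its exon reads, and Stk31 had 38, or 0.305%. The introns of Stk31, on chromosome 6 (49345603 to 49419500, plus strand), held the most antisense intron reads of the Tudor genes, and few in sense orientation. There were 174 and 246 antisense reads in the controls and 150 and 162 in the mutants, but only 3, 6, 2 and 8 sense reads in the same order. Over the 4 libraries, 97.5% of the 751 Stk31 intron reads were antisense (Wilson 95% interval for counting error 96.1% to 98.4%). Per 1000000 reads of the whole table, antisense reads were 8.42 and 7.14 in the controls and 7.11 and 7.83 in the mutants, so the genotypes overlapped. The annotation holds the pseudogene Gm17060 on the opposite strand inside a Stk31 intron, from 49374060 to 49374883, and whether the reads came from it was not tested. Snd1 had no sense intron row and 21 antisense intron reads, in a gene whose span includes Lrrc4 on the opposite strand.

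Promoter sequences from RefSeq (GRCm38.p6, 250 bases before to 50 after a start) were given for 6 of the 8 measured genes. Those of the gene with the largest difference, Tdrkh, and of the one abundant gene with a match, Tdrd7, are shown because A-MYB (Mybl1), the transcription factor that turns on many piRNA pathway genes in meiosis, binds sites with the core TAACNG. Capitals mark this core on either strand. The regions are chr3:94412994-94413293 on the plus strand for Tdrkh, and chr4:45965085-45965384 on the plus strand for Tdrd7, the most upstream of its 3 listed starts. The promoters of the other listed Tdrd7 starts did not hold this core, and which start is used in testis was not tested.
Tdrkh: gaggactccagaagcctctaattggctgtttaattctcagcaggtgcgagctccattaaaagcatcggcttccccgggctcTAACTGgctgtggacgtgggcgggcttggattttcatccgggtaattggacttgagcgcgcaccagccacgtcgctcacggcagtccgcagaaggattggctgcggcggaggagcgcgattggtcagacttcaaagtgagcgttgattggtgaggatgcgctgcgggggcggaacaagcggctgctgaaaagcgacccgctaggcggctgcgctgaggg
Tdrd7: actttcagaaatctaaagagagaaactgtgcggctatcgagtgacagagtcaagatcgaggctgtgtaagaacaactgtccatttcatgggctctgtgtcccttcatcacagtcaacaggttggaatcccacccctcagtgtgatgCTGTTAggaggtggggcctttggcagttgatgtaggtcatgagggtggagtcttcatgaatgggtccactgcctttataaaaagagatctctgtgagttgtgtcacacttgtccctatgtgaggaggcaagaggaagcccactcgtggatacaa
The letters occurred in 2 of the 11 promoters of these genes, 169 bases before the Tdrkh start and 104 before the Tdrd7 start, and in 23.3% of the 32851 promoters of the same length in the table. A match is a description of the letters only. Mybl1 itself, named here after its values were seen, had 3104 and 3067 normalized counts in the controls and 2906 and 3024 in the mutants, a log2 fold change of −0.057 (adjusted p = 0.956 from edgeR).

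Genes that work with the Tudor proteins were described from fixed lists, in which 0 of the members passed the edgeR test in either direction. Of the 20 piRNA pathway and germ granule partners, 16 had a row and were tested, with 0 called and 0 at an unadjusted p under 0.05, against 0.00932% and 4.8% of all features, and a median log2 fold change of −0.054. Piwil1 (MIWI), the PIWI protein of spermatids, had the smallest p, with 6934 and 6544 normalized counts in the controls and 5767 and 6457 in the mutants, a log2 fold change of −0.14 (adjusted p = 0.954 from edgeR). Fkbp6, a co-chaperone of the piRNA pathway, and Dnmt3l, a cofactor of DNA methylation, had −0.096 and 0.24. The most abundant partners by reads, Mael, Ddx25 and Ddx4 (the VASA helicase), had log2 fold changes of 0.024, 0.012 and −0.054.

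Of the 19 other genes with Tudor domains, 18 were tested, 0 were called and 1 had an unadjusted p under 0.05, against 0.00932% and 4.8% of all features, with a median of −0.015. That gene was Uhrf1, a reader of hemimethylated DNA, with 2155 and 1967 normalized counts in the controls and 1837 and 1860 in the mutants (log2 fold change −0.15, adjusted p = 0.954 from edgeR). Phf20l1 and Phf20, methyl-lysine readers, had 0.21 and −0.10. Akap1, a mitochondrial KH and Tudor protein like TDRKH, was the most abundant of the list, with 18941 and 24463 in the controls and 23846 and 22324 in the mutants, and its log2 fold change of 0.089 became 0.29 without Nef-sp +/- replicate 2 (adjusted p = 0.0038 from edgeR, with a single control left that is assumed to vary like the mutants). Ccdc101, a subunit of the SAGA complex, and Trp53bp1, a DNA repair protein, had −0.022 and 0.011. Of the 10 genes of arginine methylation, 8 were tested and 0 were called, with 0 at an unadjusted p under 0.05. This stood against the same 0.00932% and 4.8%, with a median of −0.016. Prmt7 had −0.038, Carm1 −0.083, Clns1a 0.010, Prmt3 0.31 and Prmt6 0.17, all with an adjusted p of at least 0.954 from edgeR.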

How the data were processed

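Testicular total RNA libraries, 2 Nef-sp -/- and 2 Nef-sp +/-, were grouped by their labels. The authors trimmed 3′ adapters, mapped the reads to the mm9 genome and kept only perfect matches, using in-house tools of the Sachidanandam laboratory. They deposited a table of raw counts per feature, split by annotation category and strand. Neither software versions nor the treatment of multi-mapping reads are given in the sources used here. The deposited table also holds a normalized mean and the fold changes and p-values of the authors' DESeq2 comparison, which were not used.

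Exon sense and intron sense counts were each fitted over all features with the quasi-likelihood test of edgeR 4.0.16 in R 4.3.3, after TMM normalization and the expression filter of edgeR (minimum count 10), without covariates. Adjusted p-values follow Benjamini-Hochberg within the category, with a threshold of 0.05. Intervals use the t distribution of the fit. DESeq2 1.42.0 was an alternative. The fit was also run on counts simulated with a spread estimated from these same libraries, which cannot test whether that spread is right. Exon lengths come from GENCODE vM1 on mm9, and table symbols were matched to current ones through RefSeq synonyms. Precision is limited by the raw totals of 20659865 to 34442517 reads and by the spread between libraries of a genotype.

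The genes, lists and tests were chosen with earlier results of these data known. Named are the 10 Tudor genes, Nef-sp, and in each list that holds no cell type markers the 3 genes with the smallest p and the 3 with the highest count, plus any called. Alternatives were other scaling, filters, DESeq2, a replicate block and each library left out.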

Additional observations from a re-analysis of the deposited data

How the results depend on the processing

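In all fits, the number of Tudor genes called was 0 in exon and in intron reads. The exon count of 1 called feature became 2 with DESeq2 (Nef-sp and Klk1b21) and ran from 1 to 185 when a library was left out. In the fixed lists the count of 0 ran from 0 to 7 when a library was left out. The 7, without Nef-sp +/- replicate 2, were Akap1, Cyp11a1, Cyp17a1, Prm1, Prm2, Tnp1 and Tnp2, and without Nef-sp +/- replicate 1 there were 2, Cyp11a1 and Cyp17a1. Where a library is left out, the lone library of its genotype is assumed to vary like the other genotype. The intron count of 1 became 0 with libraries scaled to all categories and 0 without an expression filter. The cause of these moves was not tested.

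The exon log2 fold change of Tdrd6 turned from −0.00018 to 0.0030 with the size factors of DESeq2, 0.0031 with DESeq2 and 0.00028 with the replicate block. When a library was left out, exon values ran from −0.21 to 0.0023 for Tdrd1, −0.030 to 0.0059 for Tdrd3, −0.046 to 0.048 for Tdrd6, −0.039 to 0.033 for Tdrd7, −0.064 to 0.054 for Rnf17 and −0.082 to 0.022 for Snd1. Intron values ran from −0.28 to 0.067 for Tdrd1, −0.23 to 0.14 for Tdrd3, −0.15 to 0.53 for Tdrd6 and −0.029 to 0.064 for Tdrd7. Tdrkh and Stk31 kept their negative exon sign in all 10 alternatives, from −0.20 to −0.12 and from −0.090 to −0.047. Tdrkh and Rnf17 kept their negative intron sign in 10 and 11. With at least 10 counts in every library, Tdrkh intron reads could not be tested. The ratio of Tdrd6 to Snd1 per kilobase, 164, was 81.9 on the longest transcript and 133 on positions within 1 exon, the latter chosen after seeing the data, because the lengths differ.

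The replicate numbers share only a number in the labels. The deviations of same-numbered libraries correlated at −0.082 over exon and −0.14 over intron features, and with the replicate block the exon count stayed 1 and the intron count 1. With the numbers crossed in the intron fit, added after seeing this value, the count was 2, Nef-sp and Rps3.

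Depth limits intron reads most in Stk31, with 19 in all and no test, and then in Tdrd3 and Tdrkh, with 83 and 92, and with 2 libraries a genotype an exact permutation test cannot go below p = 0.333.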
